A study of Mus musculus with 5 samples.

Results

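The Hoxd cluster and its neighbour Evx2, a stretch of 10 homeobox genes on mouse chromosome 2, were examined in H3K27me3 peak lists of mouse embryonic fibroblasts (MEFs). The members were named by symbol (Hoxd1, Hoxd3, Hoxd4, Hoxd8 to Hoxd13, and Evx2) and were looked up among the 22350 protein-coding genes of the GENCODE annotation of the mm9 (NCBIM37) genome on chromosomes 1 to 19 and X. All 10 were found. H3K27me3 is the trimethyl mark that Polycomb Repressive Complex 2 (PRC2) places on lysine 27 of histone H3, and it was profiled by ChIP-Seq on chromatin cut with MNase. Peak lists of 3 of the 5 libraries of the series were analysed, from cells given 1 of 3 lentiviral transgenes: H3.3K27R, H3.3K27M or hEZHIP, the human gene. All of these lines descend from MEFs of 1 embryo with floxed, undeleted Eed, the gene of a PRC2 subunit. The parental cells and the Eed deletion line, a selected clone, were not analysed here.

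H3.3 K27M carries methionine in place of lysine 27, as in diffuse midline glioma, and inhibits PRC2. EZHIP is a protein of posterior fossa ependymoma that inhibits PRC2 as well. H3.3 K27R carries arginine at that residue, and its list was the reference for the other lists. Each group had 1 library, so no difference could be set against replicate spread and no test between lines was made. A list gives the first and last position of each peak on a grid of 200 bp bins, with no height or read count. Depth is therefore unknown, and a position outside a peak was not called enriched, which does not show that the mark was absent. The lists hold no expression, so neither the cell type nor the transgenes could be checked in them.

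Hox genes encode transcription factors that give cells along the head-to-tail axis and in the limbs their positional identity. They lie in clusters in which the order of the genes follows the order of their use, with Hoxd1 at the early, anterior end and Hoxd13 at the late, posterior end. Hox clusters are classic Polycomb targets, and their silent genes are packed in H3K27me3. The Hoxd cluster lies between a pair of gene deserts that hold enhancers for limb expression. The methyl mark is thought to be laid down at CpG islands, stretches rich in the CG dinucleotide, and to spread from there to neighbouring nucleosomes.

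The promoters and peak edges at which the lists parted are shown first. Each promoter runs from 250 bases before the annotated start site to 50 bases from it, read 5′ to 3′ on the strand of the gene from mm9, and each CG is in capitals. Hoxd13 and Hoxd9 are the outer and inner posterior genes that both inhibitor lists kept, Hoxd8 and Hoxd3 had start sites in EZHIP peaks only, Hoxd4 was in neither, and Hoxd1 was in both.
Hoxd13, chr2:74506117-74506416, plus strand: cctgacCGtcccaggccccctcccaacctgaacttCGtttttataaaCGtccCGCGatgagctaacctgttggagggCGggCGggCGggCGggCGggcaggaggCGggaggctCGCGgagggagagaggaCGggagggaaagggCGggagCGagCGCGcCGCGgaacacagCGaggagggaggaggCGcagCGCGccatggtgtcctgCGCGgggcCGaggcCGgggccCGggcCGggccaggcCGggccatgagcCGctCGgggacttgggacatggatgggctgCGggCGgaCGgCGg
Hoxd9, chr2:74535487-74535786, plus strand: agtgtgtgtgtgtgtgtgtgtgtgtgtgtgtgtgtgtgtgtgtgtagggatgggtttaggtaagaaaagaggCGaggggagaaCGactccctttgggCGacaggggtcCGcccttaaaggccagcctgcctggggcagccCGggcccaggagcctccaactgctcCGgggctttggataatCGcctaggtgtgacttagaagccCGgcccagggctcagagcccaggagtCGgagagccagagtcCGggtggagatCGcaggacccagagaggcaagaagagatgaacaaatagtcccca
Hoxd8, chr2:74542422-74542721, plus strand: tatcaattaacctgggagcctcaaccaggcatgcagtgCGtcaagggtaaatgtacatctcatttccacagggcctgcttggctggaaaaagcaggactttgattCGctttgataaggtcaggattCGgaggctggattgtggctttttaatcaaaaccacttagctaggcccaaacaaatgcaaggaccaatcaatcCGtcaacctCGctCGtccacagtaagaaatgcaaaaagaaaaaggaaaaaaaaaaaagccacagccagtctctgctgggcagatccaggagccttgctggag
Hoxd3, chr2:74549736-74550035, plus strand: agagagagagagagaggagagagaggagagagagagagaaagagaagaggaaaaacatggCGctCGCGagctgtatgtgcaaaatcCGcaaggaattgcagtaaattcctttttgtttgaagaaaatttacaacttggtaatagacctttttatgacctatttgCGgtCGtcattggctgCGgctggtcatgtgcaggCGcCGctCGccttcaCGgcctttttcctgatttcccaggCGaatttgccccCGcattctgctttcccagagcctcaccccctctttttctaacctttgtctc
Hoxd4, chr2:74559785-74560084, plus strand: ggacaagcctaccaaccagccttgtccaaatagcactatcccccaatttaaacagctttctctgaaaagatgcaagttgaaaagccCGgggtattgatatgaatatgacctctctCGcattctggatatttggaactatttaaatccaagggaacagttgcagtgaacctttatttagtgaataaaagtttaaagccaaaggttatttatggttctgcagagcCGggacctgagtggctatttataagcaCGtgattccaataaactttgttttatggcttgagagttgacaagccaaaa
Hoxd1, chr2:74600787-74601086, plus strand: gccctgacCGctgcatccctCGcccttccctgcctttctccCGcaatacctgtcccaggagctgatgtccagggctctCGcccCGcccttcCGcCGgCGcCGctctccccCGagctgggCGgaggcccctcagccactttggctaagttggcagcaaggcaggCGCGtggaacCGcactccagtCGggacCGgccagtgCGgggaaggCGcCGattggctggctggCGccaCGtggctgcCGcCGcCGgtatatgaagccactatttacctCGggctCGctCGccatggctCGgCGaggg

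These windows of 300 bases held 37 CG in Hoxd13 and 29 in Hoxd1, the highest numbers among the members. Hoxd9 had 11, Hoxd8 had 6, Hoxd3 had 13 and Hoxd4 had 4. Over the windows of 22345 protein-coding genes the median was 11 and the quartiles were 3 and 23. At least 1 CG was present in 95.1% of all windows. The windows of Hoxd13 and Hoxd1 had more CG than 93.4% and 84.9% of all promoters. Those of Hoxd4 and Hoxd11, with 4 each, had more than 25.4%. The start of Hoxd11 was in both inhibitor lists and that of Hoxd4 in neither. The outermost start of Hoxd11, which sets its window, belongs to a non-coding transcript of the gene. Hoxd4 has 2 distinct transcript starts. Its window is likewise set by the outermost one, which lies 3349 bp from the nearest CpG island.

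The edge behind Hoxd9, shared by both inhibitor lists as deposited, is shown by the last 200 bp bin inside and the first bin outside the peaks, on the plus strand. The bins around the shared edge before Hoxd1 follow.
Inside the edge behind Hoxd9, chr2:74539601-74539800: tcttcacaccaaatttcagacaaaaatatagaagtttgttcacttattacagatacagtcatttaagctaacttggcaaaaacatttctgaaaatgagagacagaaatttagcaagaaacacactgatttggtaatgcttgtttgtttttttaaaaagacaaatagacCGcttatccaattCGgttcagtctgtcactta
Outside the edge behind Hoxd9, chr2:74539801-74540000: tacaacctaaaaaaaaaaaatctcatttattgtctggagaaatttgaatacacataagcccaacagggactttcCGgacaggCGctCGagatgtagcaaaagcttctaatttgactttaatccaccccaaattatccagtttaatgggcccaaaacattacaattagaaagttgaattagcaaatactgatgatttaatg
Outside the edge before Hoxd1, chr2:74598001-74598200: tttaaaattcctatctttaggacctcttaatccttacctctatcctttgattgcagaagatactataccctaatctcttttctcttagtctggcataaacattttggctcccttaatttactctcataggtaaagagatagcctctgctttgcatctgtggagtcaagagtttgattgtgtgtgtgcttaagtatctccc
Inside the edge before Hoxd1, chr2:74598201-74598400: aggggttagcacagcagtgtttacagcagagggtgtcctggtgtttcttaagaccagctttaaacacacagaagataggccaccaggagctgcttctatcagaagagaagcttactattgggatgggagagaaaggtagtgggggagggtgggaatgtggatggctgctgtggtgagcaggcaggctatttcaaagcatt

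The bin inside the edge behind Hoxd9 held 2 CG and the bin outside it held 3. Both bins at the edge before Hoxd1 held 0. None of the 4 bins at these edges overlapped a CpG island.

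The start sites of all 10 members lay in K27R peaks. Across all protein-coding genes, 30.1% had the start site in a K27R peak. K27M peaks held the start sites of 7 members, and EZHIP peaks those of 9. Among the 6735 genes with a start site in K27R, 29.9% had it in a K27M peak and 25.6% in an EZHIP peak. The 7 members in K27M were also in EZHIP, where 21.9% of the K27R genes were in both inhibitor lists. Hoxd8 and Hoxd3 were in EZHIP and not in K27M, a class of 3.68% of the K27R genes. No member was in K27M and not in EZHIP, which held for 7.94% of the K27R genes. Hoxd4 was in neither list, as were 66.5% of the K27R genes. The members are neighbours in the same K27R region, so their counts are not independent draws from these shares.

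In K27R cells a single region of 239.2 kb on chromosome 2, from 74417201 to 74656400, covered all 10 gene bodies in full. It was the 374th widest of 12845 K27R peaks. The cluster itself, from the end of Evx2 to the end of Hoxd1, spans 112.2 kb (74491049 to 74603200). The left edge of the region lay 291 bp inside Lnp, which encodes an endoplasmic reticulum protein. Its right edge lay 7.46 kb before the start of Mtx2, a gene of mitochondrial protein import. The gene bodies of these neighbours were outside the region, with 0.494% of Lnp and 0% of Mtx2 in K27R peaks.

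The posterior genes and Evx2 stood in 1 wide peak in each inhibitor list. The K27M peak spanned 61.8 kb (74478001 to 74539800) and was the 101st widest of 3736. The EZHIP peak spanned 56.6 kb (74483201 to 74539800) and was the 30th widest of 4992. As deposited, both peaks ended at the same bin, 1.54 kb past the end of Hoxd9 and 2.87 kb before the start of Hoxd8, between the genes. This shared edge depended on how neighbouring peaks were joined. With neighbours up to 10000 bp apart joined in every list, the EZHIP peak ran on over Hoxd8 to an intron of Hoxd3 (74480801 to 74553400, 72.6 kb), while the K27M peak kept its edges. In all 3 lists some peaks were left apart at gaps shorter than the maximum gap stated in the study's methods for this mark. The sources used here give no reason. Gaps under 5000 bp numbered 898 of 4972 in EZHIP, 311 of 12825 in K27R and 0 of 3716 in K27M. The ranks of width are those of the lists as deposited, so they are not strictly alike between lists. No ranks are given after joining. On the Evx2 side the EZHIP edge was 5.2 kb further in than the K27M edge. The K27R region reached 60.8 kb beyond the K27M peak on the Evx2 side and 116.6 kb beyond it on the Hoxd8 side.

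**Figure D1:**
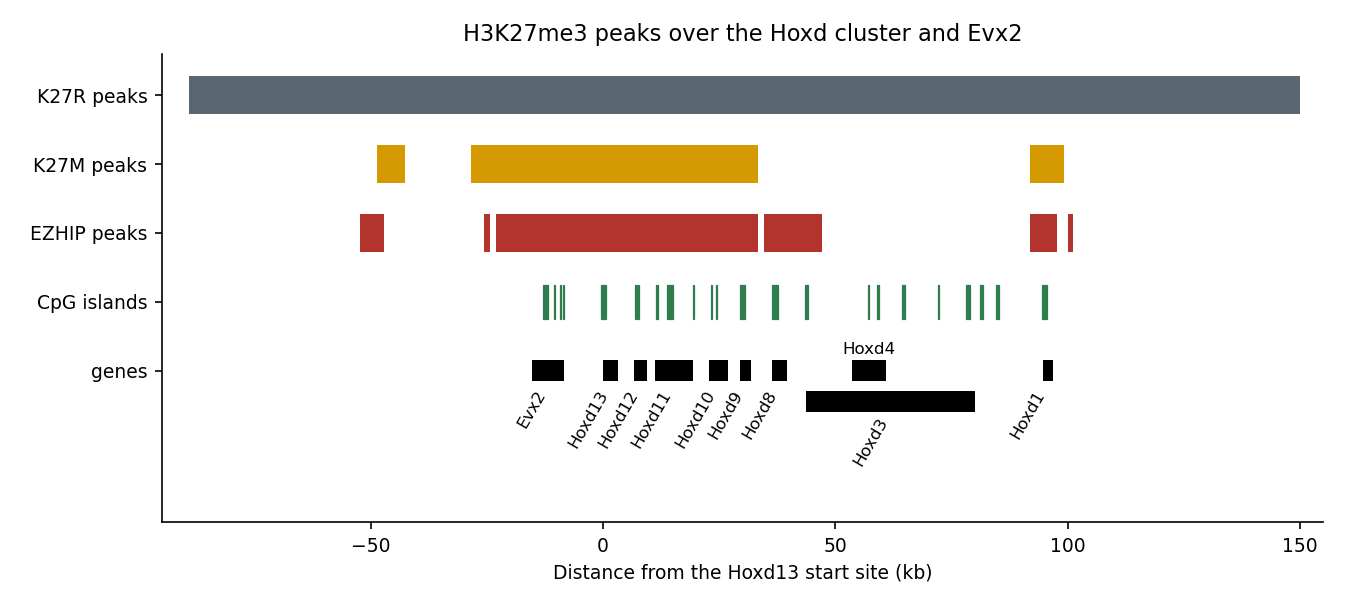
Peaks of the K27R, K27M and EZHIP lists (bars), CpG islands and the 10 member genes, by distance in kb from the Hoxd13 start site. A K27R region of 239.2 kb spans the cluster, the widest K27M and EZHIP peaks as deposited end together between Hoxd9 and Hoxd8, and the EZHIP list alone goes on after a gap of 1.2 kb with a peak over Hoxd8 and the first start of Hoxd3, which joining of neighbours up to 10000 bp apart makes part of the same peak.

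Evx2, an even-skipped homeobox gene used in the distal limb and in spinal interneurons, is read towards the gene desert (74491049 to 74497918, minus strand). Its start site lay 19.92 kb inside the left edge of the K27M peak and 14.72 kb inside that of the EZHIP peak. Hoxd13, which patterns the digits, runs from 74506367 to 74509656 on the plus strand, as do all Hoxd genes. Its start lay 28.37 kb from the nearest edge in K27M and 23.17 kb in EZHIP. Among the members the K27M value was the deepest position of a start site inside a residual peak.

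Hoxd12 and Hoxd11, which act in the limb with Hoxd13, lay 26.81 kb and 22.35 kb from the shared right edge. Hoxd11 has 3 annotated transcript starts, and all 3 were in the peaks of each list. Hoxd10, a gene of the lumbar spinal cord and hindlimb, lay 10.65 kb from that edge. Hoxd9, which acts in the axial skeleton and forelimb, lay 4.06 kb from it and was the last start site inside. The bodies of Evx2 and of Hoxd13 to Hoxd9 were covered to 100% in all 3 lists. Of the 22350 genes, 20.1% had a body wholly in K27R peaks. A K27M peak covered the whole body in 13.8% of those and an EZHIP peak in 9.05%, with a median cover of 0% in each list.

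Hoxd8, used in the trunk, was the first member past the shared edge. Its start lay 2.87 kb outside the K27M peak, and 0% of its body was covered in K27M. In EZHIP a separate peak of 12.4 kb (74541001 to 74553400) covered its body to 100%. This peak began 1.2 kb after the wide EZHIP peak ended. The shortest gap between any neighbouring peaks was 1.2 kb in the EZHIP list, 5.2 kb in the K27M list and 0 kb in the K27R list. The lists thus differed in how near to each other peaks were left apart. The part of that difference in the gap before Hoxd8 was not tested.

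Hoxd3, which shapes the first neck vertebrae, is annotated from 74549986 to 74586331 and overlaps Hoxd4. Its outermost start lay 10.19 kb outside the K27M peak and 3.41 kb inside the right edge of the EZHIP peak of 12.4 kb, which ended in an intron of Hoxd3. Only 9.4% of the annotated Hoxd3 body was in EZHIP peaks, and 0% in K27M peaks. Of 6 distinct transcript starts of Hoxd3, 1 was in an EZHIP peak and 0 were in a K27M peak. The call for Hoxd3 in EZHIP therefore rests on its outermost start.

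Hoxd4, a gene of the neck vertebrae, runs from 74560035 to 74567217 within the Hoxd3 model. Its start was 20.23 kb from the nearest K27M peak and 6.63 kb from the nearest EZHIP peak. None of its 2 transcript starts was in either list, and its body was covered to 0% in both. It was the only member that lay outside the peaks of both inhibitor lists.

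Hoxd1, which is used in sensory neurons and in the early embryo, stood in a peak of its own. The K27M peak spanned 7.4 kb (74598201 to 74605600) and the EZHIP peak 5.8 kb (74598201 to 74604000). They began at the same bin, 2.84 kb before the Hoxd1 start, and the EZHIP peak ended 1.6 kb before the K27M peak. The body of Hoxd1 was covered to 100% in both. A further EZHIP peak of 1.2 kb (74606401 to 74607600) followed, where no K27M peak lay. With neighbours up to 10000 bp apart joined, it became part of the Hoxd1 peak in EZHIP (74598201 to 74607600, 9.4 kb). That joined peak ended past the K27M peak and was wider than it. The start of the antisense transcript 6720416L17Rik, 84 bp from the Hoxd1 start, was in the Hoxd1 peak of both lists.

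**Figure D2:**
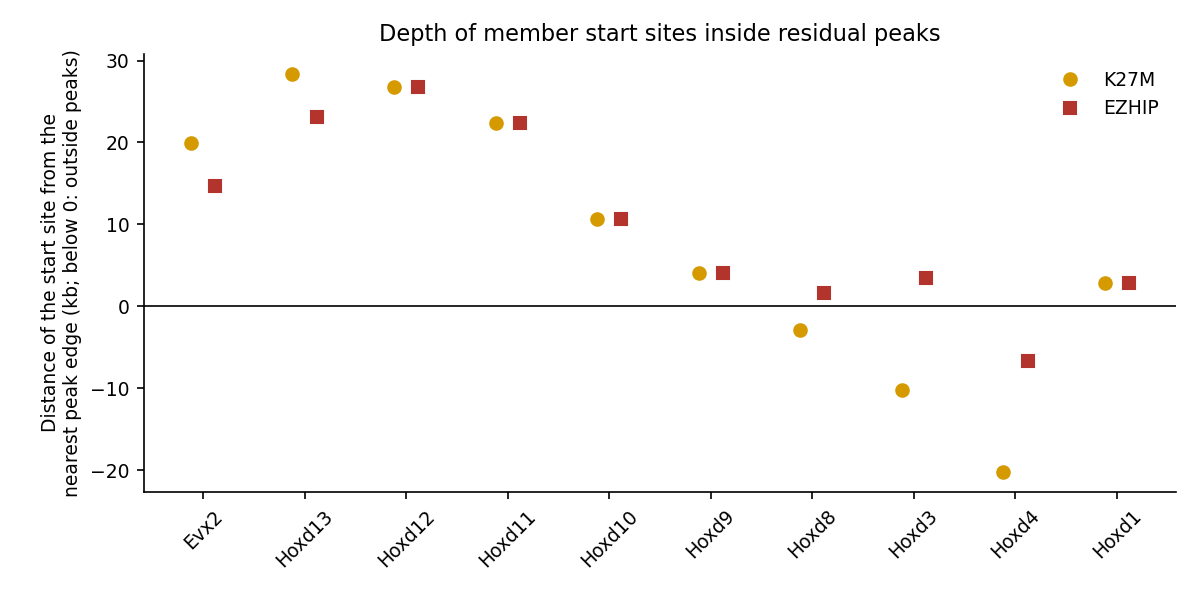
Distance in kb of each member's annotated start site from the nearest edge of a peak, above 0 inside a peak and below 0 outside, in the K27M list (circles) and the EZHIP list (squares), with members in the order of their start sites. Values fall from Hoxd12 to Hoxd9, with 4.06 kb for Hoxd9 in both lists; Hoxd8 and Hoxd3 are above 0 in EZHIP only, Hoxd4 is below 0 in both, and Hoxd1 is 2.84 kb inside in both.

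Between the residual peaks lay a stretch without a peak in each inhibitor list, wider in K27M than in EZHIP. No K27M peak lay over 58.4 kb from 74539801 to 74598200, which held 3 member starts and 9 CpG islands. In EZHIP the wide stretch without a peak was 44.8 kb, from 74553401 to 74598200, with 1 member start and 7 islands. Mir10b, the microRNA gene between the starts of Hoxd4 and Hoxd1, was in this stretch in both lists.

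Edges at the same bin in both inhibitor lists occurred at both ends of the 58.4 kb without a K27M peak. Genome-wide, 3224 EZHIP peaks overlapped a K27M peak. Of these, 5.83% had the same first bin as the K27M peak, as at Hoxd1, and 6.14% had the same last bin, as behind Hoxd9. With neighbours up to 10000 bp apart joined, the shared first bin at Hoxd1 remained and the shared last bin behind Hoxd9 did not.

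By length, K27M peaks covered 47.9% of the cluster span and EZHIP peaks 59%. From Evx2 to Hoxd9 both covered 100%. From Hoxd8 to Hoxd1 K27M covered 8.26% and EZHIP 26%. All of the K27M cover in the span was also in EZHIP peaks (100%), and 81.3% of the EZHIP cover was in K27M peaks. Over the whole K27R region of the cluster the shares were 31.5% in K27M and 34.4% in EZHIP. Among all 1444 K27R regions of at least 100 kb the median shares were 2.93% and 3.12%, and 89.2% and 93.8% of those regions had a smaller share than the Hoxd region in K27M and in EZHIP. Over all K27R regions, 8.73% of the length was in K27M peaks and 6.26% in EZHIP peaks.

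CpG islands were then set against the peaks. The K27R region held 23 islands, all within the cluster span. K27M peaks overlapped 14 of them and EZHIP peaks 16. Of the 6822 islands that overlapped K27R peaks genome-wide, 45.2% overlapped a K27M peak and 38.2% an EZHIP peak. Neighbouring islands of the cluster share peaks, so their counts are not independent draws from these shares. The counts also depended on island size. Of the 11 islands of at least 500 bp in the region, 5 were in K27M and 7 in EZHIP. The 13 islands from Evx2 to Hoxd9 and the island at the Hoxd1 start were in both lists. The islands of 1333 bp at the Hoxd8 start and of 590 bp at the Hoxd3 start were in EZHIP only. The remaining 7, from the Hoxd4 body to the last one before Hoxd1, were in neither list and ranged from 252 to 920 bp. Islands lay both in the parts of the cluster with inhibitor peaks and in the parts without.

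Counted by 200 bp bin, the density of CG in the whole Hoxd K27R region differed between bins in both inhibitor lists and bins in neither. Bins in both inhibitor lists (65.2 kb) held 3.07 CG per 100 bases, and bins in neither (146.6 kb) held 1.14. Bins in EZHIP only (17.2 kb) held 2.8, and bins in K27M only (10.2 kb) held 0.76. Over all K27R regions these densities were 1.91 in both, 0.89 in neither, 1.22 in EZHIP only and 1.19 in K27M only. Bins in neither lay within the cluster, between the residual peaks, and also outside the cluster span, where the region held no islands. In windows of 1000 bp, CG per 100 bases ranged from 0.2 to 7.6 in the 44.8 kb without a peak in either inhibitor list. It ranged from 0.1 to 2.2 in the parts outside the cluster span that were in neither list. Parts with and without inhibitor peaks within the cluster were not compared alone. Neighbouring bins share sequence and peaks, and the values are given as a description.

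**Figure D3:**
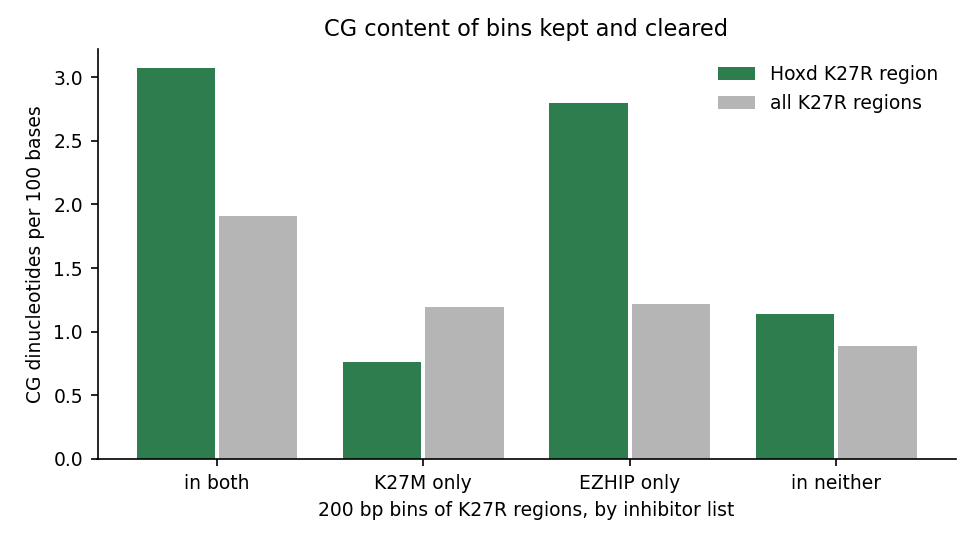
CG dinucleotides per 100 bases (bars, starting at 0) in 200 bp bins of the Hoxd K27R region and of all K27R regions, by whether the bin was in both inhibitor lists, in K27M only, in EZHIP only or in neither. In the Hoxd region bins in both lists hold 3.07 and bins in EZHIP only 2.8, against 1.14 for bins in neither and 0.76 for bins in K27M only. Bins in neither include the parts of the Hoxd K27R region outside the cluster span.

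The flanks of 1 Mb on each side were examined for further residual peaks. K27R peaks covered 69.5% of the flank on the Evx2 side and 76.7% of that on the Hoxd1 side, where 22.1% of all 20 chromosomes was in K27R peaks. Residual peaks covered less of the flanks than of the cluster. The flanks begin at the outer gene ends, so they include the parts of the cluster's own peaks that reach beyond Evx2 and Hoxd1. On the Evx2 side K27M covered 6.92% and EZHIP 4.08%, and on the Hoxd1 side K27M covered 0.94% and EZHIP 1.14%.

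On the Evx2 side the widest K27R region in the desert spanned 447.0 kb (73753801 to 74200800) and held 0 CpG islands and no start of a protein-coding gene. In K27M it kept 6 peaks (39.6 kb), and in EZHIP 5 peaks (14.8 kb). EZHIP and K27M overlapped at 4 of these EZHIP peaks and at 3 of these K27M peaks. The widest of them, a K27M peak of 14 kb (73899601 to 73913600), held 2 EZHIP peaks of 3.6 and 3.0 kb. Nearer to Evx2, and within the K27R region of the cluster, a K27M peak of 6.2 kb (74457601 to 74463800) and an EZHIP peak of 5.2 kb (74454001 to 74459200) overlapped in part.

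On the Hoxd1 side a K27R region of 711.0 kb (74734201 to 75445200), the 31st widest of the list, filled most of the desert beyond Mtx2. It held 1 K27M peak of 7.0 kb (74972401 to 74979400), at the start of the non-coding transcript Gm13652. EZHIP had peaks of 5.8 kb and 2.0 kb there and another of 1.6 kb (74996601 to 74998200). Together these covered 0.985% of the region in K27M and 1.32% in EZHIP.

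The flanks held 7 protein-coding genes beside the cluster, of which 2 had a start site in K27R. Chn1, which encodes a Rac GTPase-activating protein, had its start in peaks of all 3 lists, with a K27M peak of 10.4 kb and an EZHIP peak of 11.8 kb. Lnp was in K27R only, with its start 291 bp from the edge. The start sites of Atf2, Atp5g3, Mtx2, Hnrnpa3 and Nfe2l2, among them an ATP synthase subunit gene (Atp5g3) and the regulator of the oxidative stress response (Nfe2l2), were outside the peaks of every list. Within the cluster, the start of Gm14396, a protein-coding model between Hoxd10 and Hoxd9, was in all 3 lists. Of 6 non-coding genes within the cluster, all 6 starts were in K27R and 2 were in each inhibitor list, those of Gm20440 and 6720416L17Rik.

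**Figure D4:**
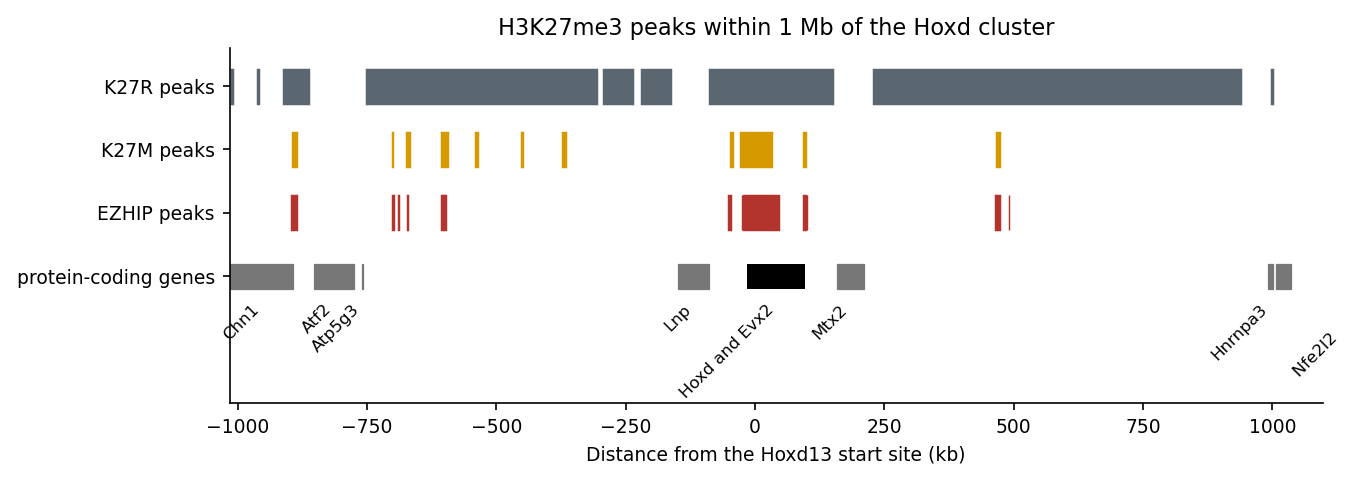
Peaks of the K27R, K27M and EZHIP lists and protein-coding genes within 1 Mb of the cluster, by distance in kb from the Hoxd13 start site, with a fine outline that keeps the narrowest peaks visible and closes the narrowest gaps between them. K27R regions of 447.0 kb and 711.0 kb lie on either side, with residual K27M peaks of at most 14 kb in them, against 61.8 kb over the cluster.

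The other Hox clusters were measured in the same way, with no test of a difference between clusters. Peaks covered 50.2% of Hoxa with Evx1, 59% of Hoxb and 69.5% of Hoxc in K27M, against 47.9% of Hoxd with Evx2. In EZHIP they covered 52.4%, 45.1% and 67.8%, against 59% of Hoxd. K27R covered 100% of Hoxd and of Hoxc, and 62.7% of each of the other clusters. In K27M cells the start sites of 5 of 12 genes of Hoxa with Evx1, 5 of 10 of Hoxb and 7 of 9 of Hoxc were in peaks. In EZHIP these counts were 5, 3 and 7. For Hoxd with Evx2 they were 7 and 9 of 10. The clusters also differed in K27R, with start sites of 6 of 12 genes in peaks in Hoxa with Evx1, 6 of 10 in Hoxb, 9 of 9 in Hoxc and 10 of 10 in Hoxd with Evx2. Of the genes in K27R, K27M peaks held 5 of 6, 5 of 6, 7 of 9 and 7 of 10, and EZHIP peaks 5 of 6, 3 of 6, 7 of 9 and 9 of 10, in the same order. By this share Hoxd was the lowest of the 4 clusters in K27M and the highest in EZHIP. The EZHIP rank depends on the Hoxd3 call, which rests on its outermost start. Without it Hoxd would have 8 of 10, a lower share than the 5 of 6 of Hoxa with Evx1. The K27M rank depends on Hoxd8 in a like way. With a start allowed within 5000 bp of a peak, Hoxd would have 8 of 10 in K27M. That is a higher share than the 7 of 9 of Hoxc as deposited, and the other clusters were not recounted at that setting. Neighbouring genes share peaks, so these shares are not independent counts.

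Hox genes of the same number in different clusters are paralogues, and they were grouped by number after the values were seen. All 5 Hoxd genes of groups 9 to 13 had start sites in both inhibitor lists, as did all 11 of these groups in the other clusters. Of the 4 Hoxd genes of groups 1 to 8, K27R peaks held all 4 start sites, K27M peaks held 1 and EZHIP peaks held 3. In the other clusters 19 genes belong to groups 1 to 8, and K27R peaks held 9 of their start sites, K27M peaks 5 and EZHIP peaks 3. The higher K27M count there came from Hoxb, with 3 start sites in K27M against 1 in EZHIP, whereas in Hoxd the EZHIP count was the higher.

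**Figure D5:**
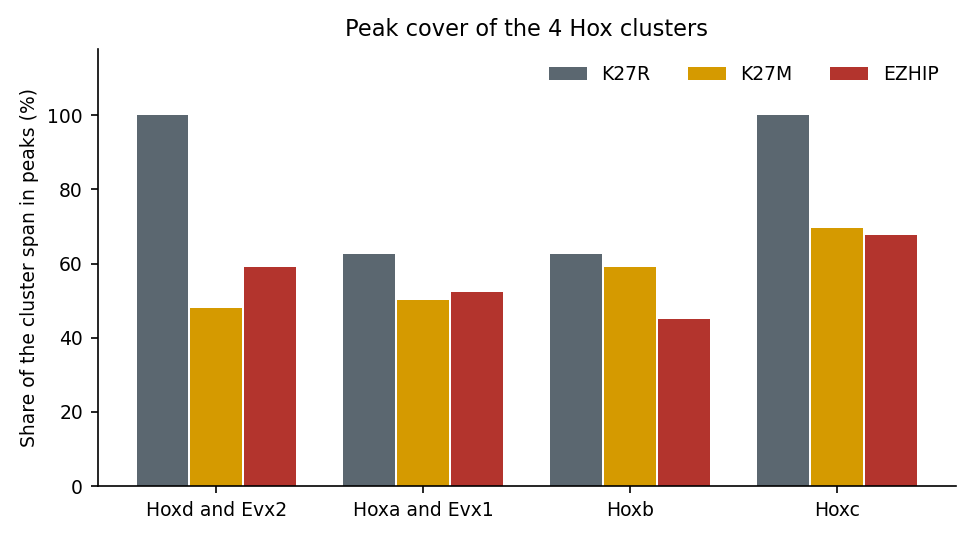
Share in percent of each Hox cluster, from the first to the last base of its genes, that lay in K27R, K27M and EZHIP peaks (bars, starting at 0). For Hoxd with Evx2 the K27R bar reaches 100%, the K27M bar 47.9% and the EZHIP bar 59%; the EZHIP bar is higher than the K27M bar there and in Hoxa with Evx1.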

How the data were processed

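H3K27me3 ChIP-Seq of MEFs was analysed from peak lists of 3 libraries, grouped by the titles of the samples. By the study's methods, the authors aligned reads with bowtie1 to mm9 (Bowtie 1.0.0 in the submitters' processing notes) and called broad peaks per library with MOSAiCS-HMM, using a maximum gap and a read threshold. Chromatin of another species was added for scaling; whether the scaling entered the calls is not given in the sources used here. The deposited lists hold positions only. Starts lay on multiples of 200 bp and ends on the last base of a bin, so peaks were taken as whole bins and are printed counting from 1. The last peak of each of the 20 chromosomes ended inside the NCBIM37 sequence, and GENCODE vM1 was used without conversion. Start sites are the 5′ ends of genes, and peaks overlapped when they shared at least 1 bp. CpG islands were found by scoring 17 for each CG and -1 for each other base, and segments over 200 bp were kept if G+C was 50% or more and CG were over 0.6 times as frequent as base composition predicts (27075 islands). No repeats were masked in this step. The study took its islands from the UCSC table browser, and the sets were not compared.

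Named genes are the members, the protein-coding genes within 1 Mb and the genes of the other Hox clusters by counts. The members and lists were chosen with earlier results of these data known. Alternatives were peaks of at least 2000 or 5000 bp, neighbours within 10000 bp joined, a start within 5000 bp of a peak, any transcript start, at least 50% of the body, a span without Evx2, and islands of at least 500 bp. Interval and island tools were tested on simulated data. Python 3.11.15, numpy 2.4.6 and matplotlib 3.10.9 were used.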

Additional observations from a re-analysis of the deposited data

How the results depend on the processing

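No paired analysis was possible because each group had 1 library and no test was made. Counts of member start sites stayed at 10 in K27R under all 6 alternatives. They were 7 in K27M, or 8 with a start allowed within 5000 bp of a peak, which added Hoxd8. They were 9 in EZHIP, or 8 when at least 50% of the body had to be in peaks, which left out Hoxd3. Leaving Evx2 out of the span moved the cover from 47.9 to 39.7% in K27M and from 59 to 52.5% in EZHIP, which still exceeded K27M. Merging peaks up to 10000 bp apart moved the EZHIP cover to 60.1% and its widest peak from 56.6 to 72.6 kb, wider than the K27M peak of 61.8 kb, whereas as deposited it was narrower. The merged peak ended at 74553400 in Hoxd3, so that the edge shared with K27M behind Hoxd9 was lost. At Hoxd1 merging moved the EZHIP peak from 5.8 to 9.4 kb, against 7.4 kb in K27M, so the order of widths and of right edges was reversed there. With islands of at least 500 bp only, 5 of 11 were in K27M and 7 of 11 in EZHIP, in place of 14 and 16 of 23. No genome-wide share was computed for islands of this size. The remaining settings moved none of these counts, covers or widths. With positions only and no read depth, a start outside a peak may still carry the mark below the threshold.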
